A study of Homo sapiens with 14 samples.

Results

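RNA editing in HEK293T cells that carried the DECOR editor with the MALAT1 guide was set against editing in HEK293T cells that carried the REPAIR.t1 editor with the NT guide, 2 libraries each. HEK293T, derived from human embryonic kidney, takes up plasmids readily and is widely used to test editors. The members were all sites in the 4 lists deposited for these libraries, keyed by chromosome and position, with no threshold. They made up 16202 of the 26172 distinct sites of the whole series, 9304 from DECOR and 7047 from REPAIR.t1 NT. The series holds 14 libraries in 7 groups and asks how RNA editing compares between editors. Each list gives the A-to-G rate of a site in polyadenylated RNA, a fraction from 0 to 1 that is called the editing level here. The DECOR libraries were read for 62 and 160 cycles and the REPAIR.t1 libraries for 25 and 97. The effects of the editor, its guide and the length of the reads cannot be told apart. The labels spell out neither NT nor DECOR, and whether the replicates were grown separately is not stated, so their spread may be technical. No library without an editor was among the 14, so a listed site may be edited, or may differ from the genome, for other reasons than the editor.

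Adenosine deaminases turn adenosine into inosine, which pairs like guanosine and is therefore read as G in a sequencing library. Human ADAR enzymes act on double-stranded RNA, while the bacterial deaminase TadA acts on an adenosine in the anticodon loop of a tRNA. An RNA base editor joins a deaminase to a protein that is led to a transcript by a guide RNA, and edits elsewhere in the transcriptome are called off-target edits. The REPAIR editors join an inactive Cas13 protein to an ADAR deaminase domain. The series title names an evolved bacterial deaminase, and the labels do not say which editor carries it. MALAT1, the gene in the name of the DECOR guide, is an abundant nuclear noncoding RNA.

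All positions were taken to refer to hg19 (GRCh37), which the submitters' processing notes name without saying what it was used for. Gene names, transcript regions and sequence around the sites were not analysed here. Read depth is unknown, so absence from a list does not show that a position was unedited.

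DECOR lists were longer than REPAIR.t1 NT lists, and the surplus was made of sites at low levels. It was small among sites that both libraries of a group held. The DECOR libraries listed 5516 and 5855 sites, against 4683 and 4356 in the REPAIR.t1 libraries. The means were 5686 ± 240 and 4520 ± 231 (SD, n = 2 each), a ratio of geometric means of 1.26. The groups did not overlap, and with 2 libraries on each side the two-sided exact permutation p was 0.333, the smallest this design allows. That p also holds for every other non-overlapping difference between the 2 groups below, so those differences are given as values and ranges. Between levels of 0.1 and 0.2 DECOR had 2322 and 2485 sites, against 1255 and 1157 for REPAIR.t1. From 0.2 to 0.3 the DECOR lists were still the longer ones, at 2082 and 2198 sites, against 1774 and 1670 for REPAIR.t1. From 0.3 to 0.4 the order turned, with 724 and 758 sites for DECOR and 1006 and 931 for REPAIR.t1. Above 0.6 DECOR had 25 and 19 sites, against 57 and 49 for REPAIR.t1. In every one of these bins the 2 groups lay apart. Counting only sites at 0.2 or more, the libraries of the 2 groups overlapped, with a ratio of mean numbers of 0.974, and at 0.3 or more it was 0.677. Sites in both libraries of a group numbered 2067 for DECOR and 1992 for REPAIR.t1, a ratio of 1.04.

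The median editing level was 0.211 and 0.208 in the DECOR lists, against 0.25 in both REPAIR.t1 lists, a difference of -0.0406. The lower and upper quartiles were 0.160 and 0.273 in DECOR replicate 1 and 0.159 and 0.273 in DECOR replicate 2, against 0.190 and 0.333 in both REPAIR.t1 lists. Sites edited to 0.5 or more numbered 94 and 98 in the DECOR lists, or 1.70% and 1.67%. They numbered 203 and 186 in the REPAIR.t1 lists, or 4.33% and 4.27%. The lower median and the smaller share of such sites were thus seen in each DECOR library against each REPAIR.t1 library.

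**Figure D1:**
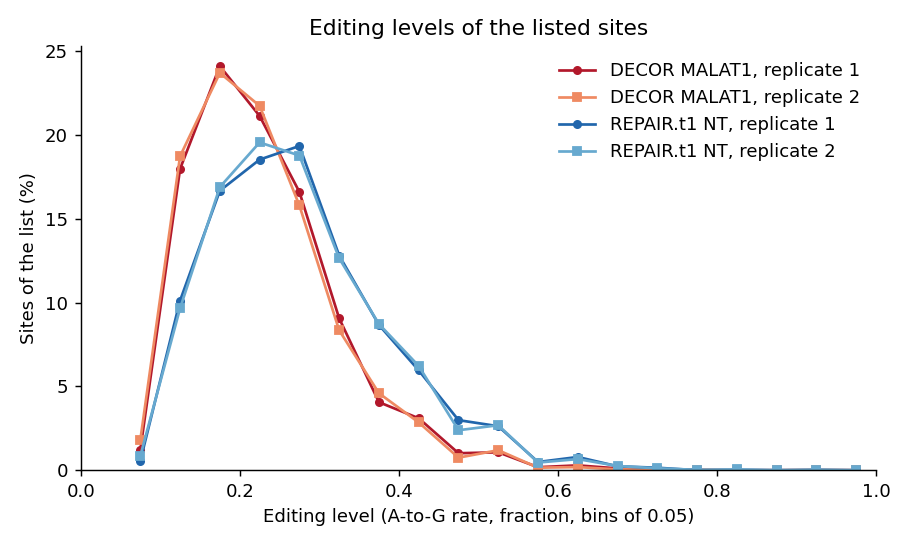
Share of each list's sites (vertical axis, percent) by editing level (horizontal axis, A-to-G rate in bins of 0.05), with 1 line per library. The 2 DECOR lines lie above the REPAIR.t1 lines at levels below 0.2 and under them from 0.3 to about 0.6, and lines of the same group nearly coincide.

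Both editors gave lists that repeated in part. The DECOR libraries shared 2067 sites, which was 37.5% of replicate 1 and 35.3% of replicate 2. The REPAIR.t1 libraries shared 1992 sites, 42.5% of replicate 1 and 45.7% of replicate 2. At these shared sites the levels of the 2 replicates had a Pearson r of 0.689 for DECOR and 0.642 for REPAIR.t1 across sites, which are not independent and share a library. The median absolute difference between replicates was 0.0421 for DECOR and 0.0548 for REPAIR.t1. The median of the mean level was 0.214 for DECOR sites in both libraries, against 0.266 for REPAIR.t1 sites in both libraries.

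Sites at high levels repeated more often than sites at low levels in both editors. Of the sites below 0.15, 36.2% and 35.6% in the DECOR lists were also in the other replicate, against 34.6% and 36.0% in the REPAIR.t1 lists. Of the sites at 0.5 or more, 54.3% and 51.0% in the DECOR lists repeated, against 58.1% and 55.4% in the REPAIR.t1 lists. The 2 editors differed most between 0.25 and 0.35, where 35.7% and 34.0% of DECOR sites repeated, against 42.7% and 47.7% of REPAIR.t1 sites. In both replicates at once, 17 DECOR sites and 38 REPAIR.t1 sites reached 0.5.

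The lists of the 2 editors seldom held the same position. A pair of 1 DECOR and 1 REPAIR.t1 library had 63 to 82 positions in common over the 4 pairs, which was 1.14% to 1.43% of the DECOR list and 1.35% to 1.88% of the REPAIR.t1 list. For comparison, REPAIR.t1 NT lists shared 43.8% to 44.2% of their positions with lists of dCas13d-ADAR, with the same NT guide and the same read lengths. The label of that editor names ADAR, the deaminase type of the REPAIR editors, so this share is no benchmark for unlike editors. Pooled over libraries, 149 positions were in a list of both DECOR and REPAIR.t1 NT, or 1.60% of the DECOR sites and 2.11% of the REPAIR.t1 sites. Of these, 57 were in 1 library of each editor and 27 were in all 4 libraries.

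The shares were larger when near positions were counted as well, and a wider distance can only raise them. What unrelated lists would share at these distances was not computed. A REPAIR.t1 site lay within 50 bases of 13.05% of DECOR sites (12.8% to 13.4% over the 4 pairs), within 1000 bases of 42.9% (42.3% to 43.9%) and within 10000 bases of 71.4% (69.7% to 73.0%). Between the 2 DECOR replicates the same shares were 48.1%, 67.1% and 83.5%. At each of these distances the share between editors was below that between the DECOR replicates. In windows of 10000 bases, 3681 windows held a DECOR site and 3671 a REPAIR.t1 site, and 1956 held both, 53.1% of the DECOR windows and 53.3% of the REPAIR.t1 windows. Of the windows hit in both libraries of an editor, 534 of 1612 for DECOR had no REPAIR.t1 site and 547 of 1712 for REPAIR.t1 had no DECOR site.

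**Figure D2:**
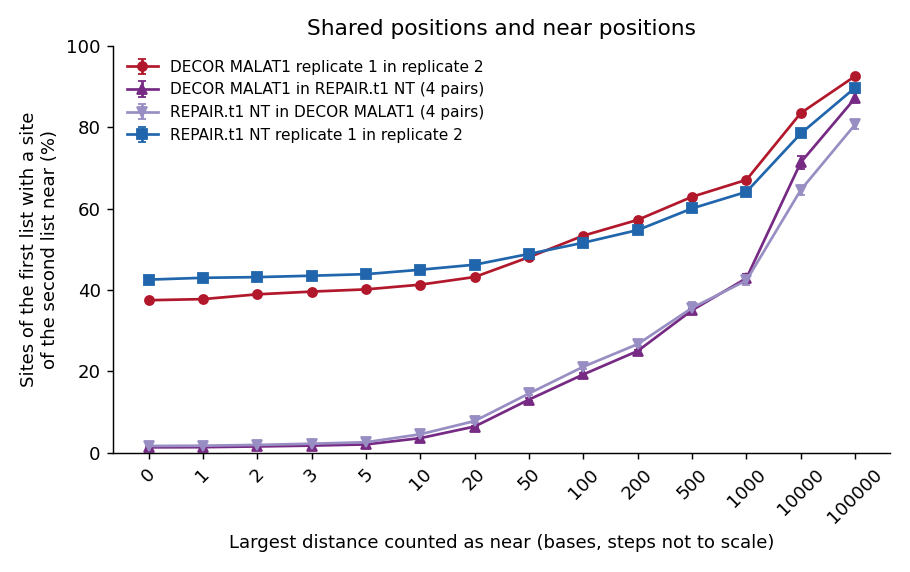
Share of the sites of the first list that have a site of the second list within a distance (vertical axis, percent; horizontal axis, distance in bases, steps not to scale). Points are means and bars the range over the 4 pairs of libraries; the lines between editors start at 1.30% and 1.64% at the same position and reach 71.4% and 64.6% within 10000 bases, below the lines of the replicates at 83.5% for DECOR and 78.5% for REPAIR.t1.

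DECOR sites stood closer together than REPAIR.t1 sites. Another site of the same list lay within 50 bases of 32.6% and 32.8% of the DECOR sites, against 21.4% and 20.6% of the REPAIR.t1 sites (means of 32.7% ± 0.176 and 20.996% ± 0.506, SD, n = 2 each). The median distance to the nearest other site was 304 and 295 bases in the DECOR lists, against 1132 and 1385 bases in the REPAIR.t1 lists. A longer list can bring sites closer together, and the DECOR lists were 1.26 times as long. The part of list length in the spacing was not tested. Among sites at a level of 0.2 or more, the difference in the share within 50 bases was 4.54 percentage points, against 11.7 points over all sites. That cut evens the list lengths but also removes more of the DECOR sites. Levels from 0.1 to 0.2 made up 42.1% and 42.4% of the DECOR lists, against 26.8% and 26.6% of the REPAIR.t1 lists.

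The shortest distances followed different patterns in the 2 editors. Consecutive sites 2 bases apart were the most frequent spacing in DECOR, at 144 and 172 pairs, or 26.1 and 29.4 per 1000 sites. In REPAIR.t1 there were 21 and 21 such pairs, or 4.48 and 4.82 per 1000 sites. Directly adjacent sites, 1 base apart, ran the other way, with 31 and 32 pairs in DECOR (5.62 and 5.47 per 1000 sites) against 70 and 67 pairs in REPAIR.t1 (14.9 and 15.4 per 1000 sites). The spacing of 2 bases was 5.96 times as frequent in DECOR and the spacing of 1 base 0.366 times as frequent, so the 2 spacings differed in opposite directions. Spacings of 3 bases were also more frequent in DECOR, at 15.6 and 12.98 per 1000 sites, against 7.47 and 8.95 in REPAIR.t1. In the 6 other lists of REPAIR.t1 and dCas13d-ADAR, pairs 2 bases apart numbered 3.43 to 6.72 per 1000 sites and adjacent pairs 9.84 to 15.3, so the 2 DECOR lists lay outside the range of these lists on both counts.

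Of all pairs of DECOR sites exactly 2 bases apart, 55 were in both libraries, 37.4% of those in replicate 1 and 31.4% of those in replicate 2. Sites in such pairs had median levels of 0.217 and 0.2 in the DECOR lists, close to the 0.211 and 0.208 of the remaining DECOR sites. Of the adjacent pairs of REPAIR.t1, 25 were in both libraries, 35.7% of replicate 1 and 37.3% of replicate 2. One REPAIR.t1 stretch held 4 consecutive positions, chr6:74228114-74228117, listed in both REPAIR.t1 libraries and in neither DECOR library; it was singled out after its values were seen.

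**Figure D3:**
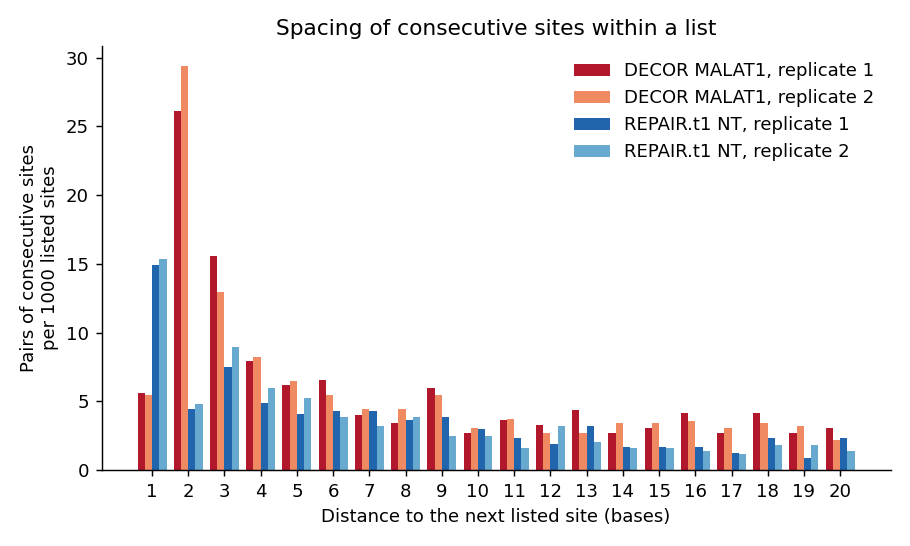
Pairs of consecutive listed sites per 1000 sites (vertical axis) by their distance from 1 to 20 bases (horizontal axis), with 1 bar per library. DECOR peaks at 2 bases, at 26.1 and 29.4 pairs per 1000 sites, and REPAIR.t1 at 1 base, at 14.9 and 15.4.

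DECOR sites also formed longer runs. When sites were chained with each step at most 50 bases, 12.9% and 12.1% of the DECOR sites stood in chains of 3 or more, against 5.42% and 5.03% of the REPAIR.t1 sites. Chains of 5 or more numbered 24 and 25 in the DECOR lists, against 3 and 2 in the REPAIR.t1 lists. The longest DECOR chain held 15 and 18 sites, while no REPAIR.t1 chain held more than 5.

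The longest chain was part of a stretch of chromosome 19 with an exceptional number of DECOR sites. In the window of 10000 bases from position 14620001, the DECOR libraries listed 62 and 56 sites, against 1 and 3 in the REPAIR.t1 libraries. The DECOR sites lay between positions 14625673 and 14629148, a span of 3476 bases, and 51 of the 67 distinct ones were in both libraries. None of the REPAIR.t1 positions coincided with a DECOR position, and the 10 lists of the other groups held 0 to 5 sites there. Levels in this window were high for DECOR, with medians of 0.284 and 0.273, against 0.178 and 0.209 for the few REPAIR.t1 sites. At 0.5 or more there were 10 and 6 DECOR sites. Across the 51 repeated sites, the levels of the 2 DECOR replicates had a Pearson r of 0.820, as a description of sites of 1 short stretch. The chain of 15 and 18 sites ran over 200 bases, chr19:14626753-14626952, where each REPAIR.t1 library listed 1 site. Which gene this stretch belongs to was not analysed here, and expression was not measured in these files, so the part of transcript level in the number of sites was not tested.

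The next windows were rich in sites for DECOR and held fewer REPAIR.t1 sites. From position 99690001 on chromosome 7 there were 36 and 29 DECOR sites and 13 and 9 REPAIR.t1 sites, the only window among the 8 richest of both editors. From position 44210001 on chromosome 6 there were 25 and 25 DECOR sites, against 6 and 5 for REPAIR.t1. From position 57030001 on chromosome 12 there were 24 and 25, against 2 and 3. Levels in these windows were below the medians of the whole lists for DECOR, at 0.173 and 0.170 on chromosome 7, 0.143 in both libraries on chromosome 6 and 0.153 and 0.152 on chromosome 12. The chromosome 19 window thus differed from them in its levels as well as in its number of sites.

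Other windows were richer in REPAIR.t1 sites. From position 153270001 on the X chromosome there were 2 and 2 DECOR sites, against 12 and 13 REPAIR.t1 sites. From position 102120001 on chromosome 10 there were 1 and 0 DECOR sites, against 9 and 15 for REPAIR.t1. From position 33780001 on chromosome 1 DECOR had no site, against 6 and 7 for REPAIR.t1. Conversely, from position 127330001 on chromosome 3 there were 9 and 11 DECOR sites and no REPAIR.t1 site, and from position 77930001 on chromosome 14 there were 10 and 8 against none. All windows named here were ranked by their site numbers, so their differences are given as descriptions with no test.

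**Figure D4:**
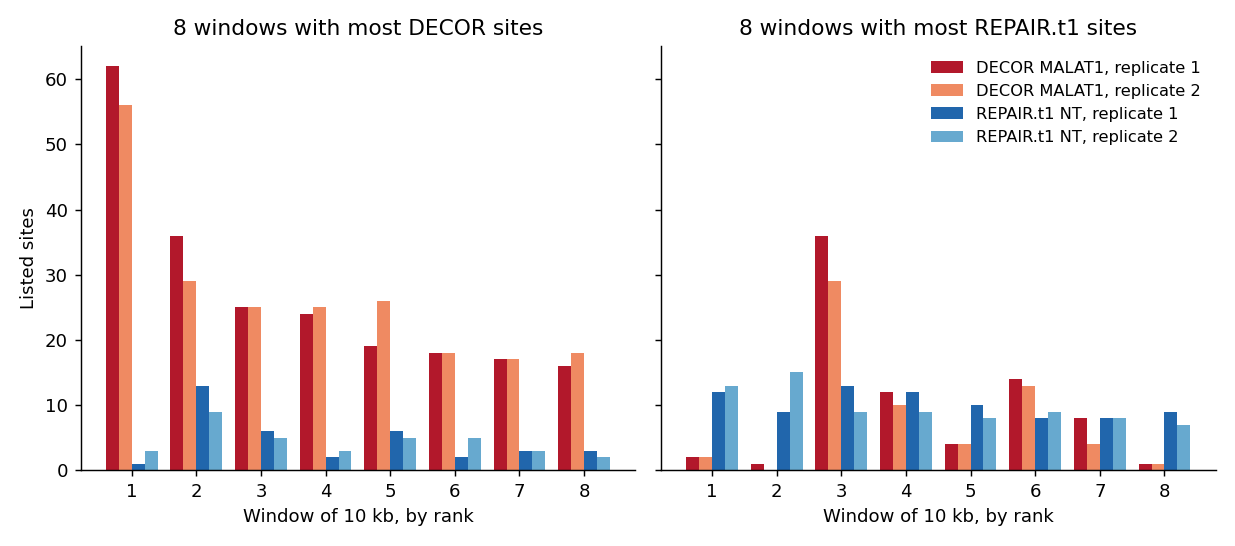
Listed sites per library (vertical axis) in the 8 windows of 10 kb with most DECOR sites (left) and with most REPAIR.t1 sites (right), by rank. The first DECOR window holds 62 and 56 DECOR sites and 1 and 3 REPAIR.t1 sites, while no window holds more than 15 REPAIR.t1 sites in a library.

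The share of sites on a chromosome differed between the editors by at most 2.06 percentage points. The library shares of the 2 groups did not overlap on 17 of 23 chromosomes (73.9%), 8 of them higher in DECOR (34.8%) and 9 lower (39.1%). With 2 libraries a side, no single chromosome could pass the exact permutation test, the only one run on these shares. Chromosome 19 held 10.6% and 10.3% of the DECOR sites, against 8.90% and 7.83% of the REPAIR.t1 sites, the largest surplus for DECOR at 2.06 points. Without the site-rich window on that chromosome the surplus was 1.16 points, with 9.55% and 9.42% for DECOR against 8.89% and 7.76% for REPAIR.t1. Chromosome 1 held 11.7% of the sites in both DECOR libraries, against 12.6% and 13.4% in the REPAIR.t1 libraries, the largest deficit.

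At the 27 sites listed in all 4 libraries, editing levels were lower with DECOR at 5, and the others did not pass the test; a sixth site, higher in DECOR and described below, passed under some other settings. The mean level over the 27 sites was 0.223 and 0.219 in the DECOR libraries, against 0.255 and 0.263 in the REPAIR.t1 libraries, a difference of -0.0383. The median difference over the 27 sites was -0.0164. Over the 22 sites that did not pass the test below, the mean difference was 0.0149 and the median 0.00117. The 5 that passed had the 5 lowest differences of the 27, so leaving them out could only raise these values. Site by site, limma's moderated test on log2 odds passed 5 of 27 sites (18.5%) at an adjusted p below 0.05, all 5 lower in DECOR (18.5%) and none higher (0%), with 6 at an unadjusted p below 0.05. Libraries of the 2 groups did not overlap at 15 sites (55.6%), 8 lower (29.6%) and 7 higher (25.9%) in DECOR. Of the 22 sites that did not pass, 11 were higher and 11 lower in DECOR.

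Position 235277158 on chromosome 1 had levels of 0.211 and 0.217 in the DECOR libraries, against 0.675 and 0.618 in the REPAIR.t1 libraries. It was the only one of the 27 sites in all 10 lists of the other groups, at 0.275 on average in the libraries of REPAIRv2 NT, another REPAIR editor, and at 0.646 in dCas13d-ADAR NT libraries. The difference was -2.68 log2 units of odds (SE 0.30, limma adjusted p = 0.00143). DECOR was thus far below REPAIR.t1 at a site that every list of the series held.

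On chromosome 11, position 75113460 had levels of 0.2 and 0.136 with DECOR, against 0.531 and 0.604 with REPAIR.t1 (-2.65 log2 units, SE 0.35, limma adjusted p = 0.00207). A neighbouring shared site, position 75111800, showed no such gap, at 0.134 and 0.136 with DECOR against 0.115 and 0.132 with REPAIR.t1. The REPAIR.t1 libraries were thus high at one of these sites and low at the other, while the DECOR libraries were low at both. Position 60668789 on the same chromosome had 0.162 and 0.167 with DECOR, against 0.353 and 0.395 with REPAIR.t1 (limma adjusted p = 0.0108). Position 122931900 had 0.137 and 0.127 with DECOR, against 0.263 and 0.333 with REPAIR.t1 (limma adjusted p = 0.0197). The fifth site was position 146015798 on chromosome 8, at 0.175 and 0.176 with DECOR, against 0.333 and 0.326 with REPAIR.t1 (limma adjusted p = 0.0250). At all 5 sites both DECOR libraries were below both REPAIR.t1 libraries. All 5 calls were lost in limma when DECOR replicate 1, DECOR replicate 2 or REPAIR.t1 NT replicate 2 was left out, where 0 of 51, 47 and 33 sites passed, with 11, 8 and 6 at an unadjusted p below 0.05. With 1 library left out, the difference ran from -2.86 to -2.51 log2 units for position 235277158 over the 4 fits. For position 75113460 it ran from -2.96 to -2.33. The sign could not change in these fits, since the libraries of the 2 groups did not overlap at these sites. Position 146015798, at -1.19 to -1.14, was the only one of the 5 also lost without REPAIR.t1 NT replicate 1, so it passed in none of these 4 fits.

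The largest difference in the other direction did not pass in the fit of the 2 groups. Position 121436240 on chromosome 10 had 0.629 and 0.390 with DECOR, against 0.312 and 0.280 with REPAIR.t1 (1.28 log2 units, SE 0.47, limma adjusted p = 0.141). It did pass in limma with the replicate number as a block, with a spread shared over all 7 groups, at levels of at least 0.2 and without REPAIR.t1 NT replicate 1. Here the 2 DECOR libraries differed by more than any REPAIR.t1 library from its replicate among the 27 sites. Position 111732727 on chromosome 9, at 0.364 and 0.333 with DECOR and 0.273 and 0.214 with REPAIR.t1, was the only shared site in none of the 10 lists of the other groups. These last 2 sites and position 75111800 were chosen after their values were seen.

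**Figure D5:**
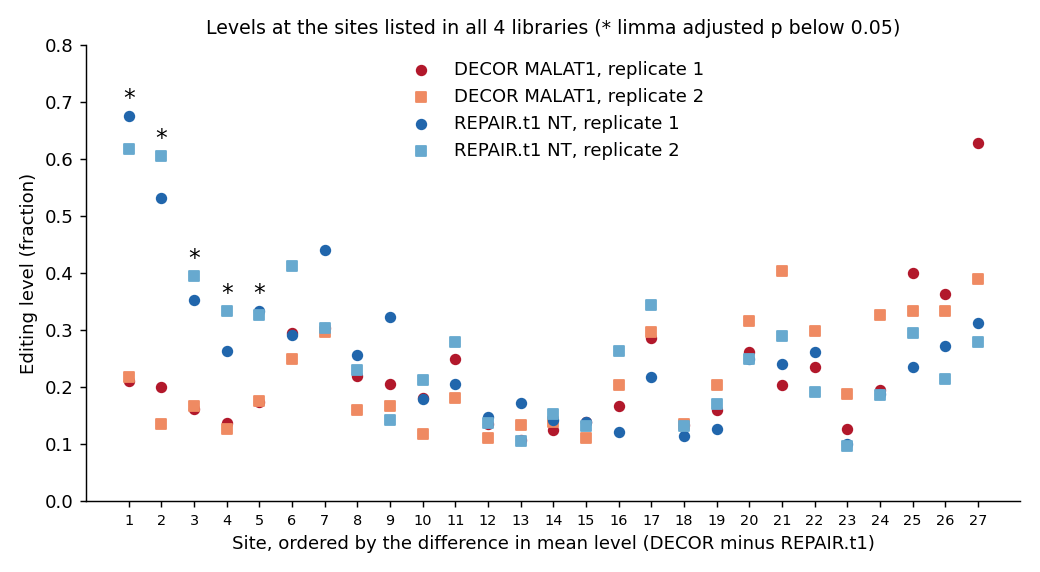
Editing level (vertical axis, fraction) in each of the 4 libraries at the 27 sites that all of them listed, ordered by the difference in mean level of DECOR minus REPAIR.t1 (horizontal axis), with an asterisk where limma's adjusted p was below 0.05. At the first 5 sites the REPAIR.t1 points lie at 0.263 to 0.675 and the DECOR points at 0.127 to 0.217; elsewhere the points of the 2 editors lie closer together or spread widely within an editor.

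Of the 10 highest sites of each editor, 9 were in no list of the other. They were taken as the 10 highest mean levels among sites in both libraries of a group, and are descriptions chosen on these values. Position 10194316 on chromosome 3 had levels of 0.769 and 0.789 in the DECOR libraries, and position 30536603 on chromosome 8 had 0.727 and 0.714. Position 104164830 on chromosome 14 had 0.667 and 0.643, and position 77083915 on the X chromosome had 0.667 and 0.611. None of these 4 was in any of the other 12 lists of the series. Position 77083891, 24 bases from the last of them, was the only one of the 10 with a value in REPAIR.t1, at 0.611 and 0.550 in the DECOR libraries and 0.550 in REPAIR.t1 replicate 2. The stretch on chromosome 19 supplied 2 of the 10, positions 14626932 (0.636 and 0.547) and 14626829 (0.550 and 0.574). The others were position 27408296 on chromosome 10 (0.692 and 0.533), position 36920696 on chromosome 22 (0.643 and 0.517) and position 75370025 on chromosome 14 (0.667 and 0.455), all in DECOR lists only. Among DECOR sites in no REPAIR.t1 NT list, the last of the 10 highest was position 23370922 on chromosome 14 (0.562 and 0.556).

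Among the 10 highest REPAIR.t1 NT sites, only position 235277158 on chromosome 1, described above, was in a DECOR list. Position 195778213 on chromosome 3 had 0.800 and 0.909 in the REPAIR.t1 libraries, and position 150345451 on the same chromosome had 0.682 and 0.75. Position 139818310 on chromosome 9 had 0.5 and 0.846, and position 377385 on chromosome 20 had 0.696 and 0.615. Of the 10 highest DECOR sites, only position 77083891 on the X chromosome was in any of the 10 lists of the other groups, in 4 of them. Each of the 10 highest REPAIR.t1 NT sites was in 5 to 10 of these lists. The next were position 103717875 on chromosome 4 (0.636 and 0.652), position 48362360 on chromosome 12 (0.545 and 0.704), position 156209533 on chromosome 1 (0.636 and 0.609), position 105063134 on chromosome 10 (0.577 and 0.667) and position 115273010 on chromosome 1 (0.632 and 0.595). Among REPAIR.t1 sites in no DECOR list, the last of the 10 highest was position 76749730 on chromosome 5 (0.643 and 0.571).

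This contrast held for the repeated sites as a whole. Of the 2067 DECOR sites that repeated, 89 (4.31%) were in any of the 10 lists of the other groups and 48 (2.32%) in a REPAIR.t1 NT list. Of the 1992 sites in both REPAIR.t1 NT libraries, 1871 (93.9%) were in a list of the other groups, 1501 (75.4%) in one of dCas13d-ADAR NT and 71 (3.56%) in a DECOR list. REPAIR.t1 was also sequenced with another guide in this series, whose 2 lists held 1654 (83.03%) of them, while DECOR had no further libraries. All 10 lists of the other groups came from the shorter read length that REPAIR.t1 NT shares, so the share found there cannot be set apart from read length. Of the 27 sites in all 4 libraries, 26 (96.3%) were in a list of the other groups, and 14 were in every list of REPAIR.t1 with the EZH2_A22 guide and of dCas13d-ADAR.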

How the data were processed

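The authors deposited 1 list per library of polyadenylated RNA, whose headers name chromosome, position and A-to-G rate, a fraction. Cutadapt, STAR 2.6.1b, hg19 and GRCh37 are named without role in the submitters' processing notes; how sites were called and filtered was not given in the sources used here. The lists hold neither counts nor coverage, so no counting interval could be computed. The gene table at hand is of GRCh38, and 324 of the 16202 sites lie past its last gene end, so it was not used to name genes, and the fixed gene lists and sequence context were not analysed.

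Groups came from the titles. Site numbers, medians, shares and spacing were computed per library and compared by two-sided exact permutation tests over 6 arrangements. Levels were compared in limma 3.58.1 as log2((level + 0.01)/(1 - level + 0.01)), called log2 odds, at sites in all 4 lists, with Benjamini-Hochberg adjustment and a threshold of 0.05. A test on read counts, planned for files that hold them, did not apply. The test was checked on 50 simulated draws of the 27 sites, with the same spread at every site. It found 40% of changes of 1 log2 unit and 94.5% of changes of 2, with 0.24 false calls on average. Changes of 1 log2 unit or less can thus be missed among the sites that did not pass.

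Sites named are those that passed without overlap (up to 10 in each direction), and the 10 highest means per group among sites in both its libraries, with and without presence in the other group; windows and others were chosen after seeing values. The members and lists were chosen with earlier results of these data known. The alternatives tried were sites at 0.1 or 0.2 and above, sites that both replicates held, each library left out, other distances, offsets and scales, a spread shared with all 7 groups and the replicate number as a block; leaving out the richest window was added after seeing the data. Python 3.11.15, numpy 2.4.6, pandas 2.3.3, scipy 1.17.1, R 4.3.3 and matplotlib 3.10.9 were used.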

Additional observations from a re-analysis of the deposited data

How the results depend on the processing

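Across the alternatives, the ratio of site numbers turned to 0.974 at levels of at least 0.2. It fell from 1.26 to 1.04 when only sites in both libraries of a group were counted. The share of DECOR sites at a REPAIR.t1 position, 1.30% over all sites, was 0.861% at that minimum and 13.05% when positions within 50 bases counted as shared. The number of sites that differed in level was 2 of 9 at a level of at least 0.2 (1 lower and 1 higher in DECOR), and ran from 0 to 8 with 1 library left out; the 8 came without REPAIR.t1 NT replicate 1 (4 lower, 4 higher, of 42). Leaving out a library also changes which sites are shared, and a lone library was assumed to vary like the other group. The mean difference at shared sites kept its sign but ran from -0.0507 to -0.00979 with 1 library left out, smallest without REPAIR.t1 NT replicate 1, and was -0.00857 at the 9 sites of at least 0.2. Medians, shares at 0.5 or more and shares within 50 bases kept their direction under every alternative run. When a library was left out this was fixed beforehand, since the libraries of the 2 groups did not overlap on these measures. Without the richest window, pairs 2 bases apart still differed by 22.1 per 1000 sites, against 23.1 with it. Replicate numbers in the titles give 2 pairs and nothing says that they mark a shared batch (correlation of same-numbered deviations 0.0674 over the 27 sites); with the replicate number as a block 6 of 27 sites passed in limma, 5 lower and 1 higher (position 121436240 on chromosome 10), as with a spread shared over all 7 groups. Depth is unknown, so absence from a list limits every overlap given.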

Other observations

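The 149 positions listed by both editors had median levels of 0.190 with DECOR and 0.214 with REPAIR.t1, each below that editor's remaining sites, at 0.210 for DECOR and 0.25 for REPAIR.t1. DECOR was higher at 65 of them, lower at 78 and equal at 6. Across these positions, which share libraries, the levels of the editors had a Pearson r of 0.461 and a Spearman rho of 0.547.

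Next to a REPAIR.t1 NT site, DECOR sites were rarer at 1 base than at other short distances. Over the pooled lists, 149 of 9304 DECOR sites coincided with a REPAIR.t1 site, 8 had one at a distance of 1 base, 22 at 2 bases, 38 at 3 bases and 52 at 9 bases. These counts depend on where adenosines lie, which was not analysed here.

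A second dense DECOR stretch lay on the X chromosome, chrX:153628173-153628281, where 10 and 8 DECOR sites stood within 109 bases and neither REPAIR.t1 library listed a site. Their mean levels were 0.197 and 0.149, lower than in the chromosome 19 chain, at 0.339 and 0.310.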
